A study of Mus musculus with 6 samples.

Results

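The 104 genes described here make up the oxidative phosphorylation system of converted double negative T cells (cDNT), cultured with or without IL-10. They were selected on their names and on their raw counts: a row of the count table was taken when its symbol belonged to a subunit family of complexes I to V, and kept when 10 or more counts were present in 3 libraries. Of 29393 genes in the table, 115 carried such a symbol and 104 passed the count filter, 92 of them nuclear and 12 mitochondrially encoded. The filter read every library, whatever its group.

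The cells were double negative T cells of adult C57BL/6 mice, labelled as spleen. In the study's methods, CD4+CD25- T cells were cocultured with mature dendritic cells and IL-2, cDNT were sorted, and anti-CD3/CD28 antibodies were given together with IL-10. The W/ IL-10 group (n = 3 libraries) received 50 ng/ml IL-10 for 24 h, and the W/O IL-10 group (n = 3 libraries) is labelled as not stimulated, with no statement on whether it received the antibodies. Neither source says whether the libraries came from separate cultures or mice, so the p-values measure the spread between these libraries, which may be technical.

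Oxidative phosphorylation is the set of reactions in the inner mitochondrial membrane that make most of the ATP of a resting cell. Complex I takes electrons from NADH, complex II from succinate, complex III passes them on to cytochrome c, complex IV gives them to oxygen, and complex V, the ATP synthase, uses the resulting proton gradient. Most subunits are encoded in the nucleus and imported, while the mitochondrial genome encodes core subunits of complexes I, III, IV and V, so both genomes have to be expressed together. In T cells the demand on this system changes with activation, when glycolysis rises, and with quiescence and memory, when mitochondrial respiration carries more of the load.

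Among the nuclear members, grouped by symbol alone, 38 were complex I subunits, 4 complex II, 9 complex III, 13 complex IV and 16 complex V. The other nuclear members were 8 complex I assembly factors (Ndufaf1 to Ndufaf8), Cox7a2l, Atp5s, and the annotated pseudogenes Ndufab1-ps and Ndufb4c. Cox7a2l is described as a factor of supercomplexes of complexes III and IV, and Atp5s as an ATP synthase coupling factor. Ndufb1-ps is counted with the subunits although its name is that of a pseudogene and it is annotated as a long noncoding RNA. The 12 mitochondrially encoded members were 7 subunits of complex I, 1 of complex III, 3 of complex IV and 1 of complex V. Just inside the filter lay mt-Nd3, with 5, 15 and 13 counts W/O IL-10 and 30, 13 and 10 W/ IL-10, and mt-Nd4l, with 17, 8 and 10 against 26, 17 and 7. Just outside lay Ndufs6b, with 8, 6, 1, 3, 10 and 6 counts. The other 102 members had 10 or more counts in every library.

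The sequences below are shown because they bear on which reads a mitochondrial member could hold. The nuclear genome carries copies of stretches of the mitochondrial genome, and a read that fits both places cannot be assigned by its sequence alone. mt-Co2, subunit 2 of cytochrome c oxidase, lies at chrM:7013-7696 (GRCm38, plus strand), and all of its 50-base stretches also occur in other annotated transcripts. Its copy Gm28661 on chromosome 1 (24614885 to 24615565, minus strand) had 0 mismatches over 681 aligned bases. mt-Nd2, subunit 2 of NADH dehydrogenase, shared 8.19% of its 50-base stretches, and its copy Gm13339 on chromosome 2 (22590024 to 22590533, minus strand) had 17 mismatches over 510 aligned bases. A stretch from the middle of each alignment is printed 5′ to 3′ from the GENCODE M21 transcripts, with bases that differ between gene and copy in capitals. The mt-Co2 stretch is chrM:7323-7382 and the mt-Nd2 stretch chrM:4667-4726.
mt-Co2: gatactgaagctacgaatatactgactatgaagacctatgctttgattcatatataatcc
Gm28661: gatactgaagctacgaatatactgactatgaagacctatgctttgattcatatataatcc
mt-Nd2: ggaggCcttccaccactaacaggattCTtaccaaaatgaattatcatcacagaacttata
Gm13339: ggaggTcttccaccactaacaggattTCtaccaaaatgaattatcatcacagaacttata
The first pair was identical over the 60 bases and the second differed at 3.

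The nuclear members are shown by the stretch upstream of their start sites. The factor NRF1 is known to bind the promoters of many respiratory chain genes. Its part in the differences between libraries was not tested. Promoter windows of 300 bases (250 before and 50 after the start site, RefSeq, GRCm38.p6) were found for 74 of the 92 nuclear members, as 79 windows. The letters GCGCNTGCGC, searched on both strands, were present in 25.3% of the members' windows, in 9.77% of 12728 windows of tested genes and in 4.60% of all 32851 windows. The YY1 letters AAGATGGC were present in 13.9% of the members' windows and 4.37% of those of tested genes, and the ETS letters CCGGAAG in 22.8% and 17.5%. The GC box GGGCGG was present in 44.3% of the members' windows against 61.1% of those of tested genes, and TATAAA in 7.59% against 7.24%. One stretch of bases may count for more than 1 motif. A match is a match of letters, and no binding was measured. For complexes I, II, IV and V, the member of highest mean level that held the NRF1 letters upstream of its start site is printed, as the 250 bases before the start site with the matching letters in capitals. Complex III had no such window.
Ndufa8 chr2:36049339-36049588 minus strand: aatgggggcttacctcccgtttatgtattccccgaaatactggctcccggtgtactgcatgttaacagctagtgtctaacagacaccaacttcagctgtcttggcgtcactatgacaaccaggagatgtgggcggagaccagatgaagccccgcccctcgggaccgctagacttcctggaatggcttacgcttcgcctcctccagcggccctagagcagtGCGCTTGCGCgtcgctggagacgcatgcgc
Sdha chr13:74350241-74350490 minus strand: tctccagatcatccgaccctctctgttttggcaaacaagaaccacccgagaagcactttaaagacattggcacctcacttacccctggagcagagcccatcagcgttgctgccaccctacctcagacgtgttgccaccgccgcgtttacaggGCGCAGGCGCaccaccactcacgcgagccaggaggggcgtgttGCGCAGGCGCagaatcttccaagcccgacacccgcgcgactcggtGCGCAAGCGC
Cox6a1 chr5:115348959-115349208 minus strand: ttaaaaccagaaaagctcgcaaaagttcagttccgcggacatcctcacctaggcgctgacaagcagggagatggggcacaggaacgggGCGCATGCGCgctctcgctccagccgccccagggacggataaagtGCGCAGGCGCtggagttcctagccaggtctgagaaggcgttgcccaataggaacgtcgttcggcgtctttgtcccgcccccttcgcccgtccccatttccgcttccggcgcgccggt
Atp5c1 chr2:10080433-10080682 minus strand: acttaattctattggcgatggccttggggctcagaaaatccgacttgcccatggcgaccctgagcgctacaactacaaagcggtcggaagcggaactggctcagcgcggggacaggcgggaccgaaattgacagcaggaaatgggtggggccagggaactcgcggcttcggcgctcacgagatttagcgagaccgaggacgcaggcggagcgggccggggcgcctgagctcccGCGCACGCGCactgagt
Sdha held 3 matches, Cox6a1 2, and Ndufa8 and Atp5c1 1 each.

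The libraries held 21619420 to 23967088 counts, so that a gene with 3 counts stood at 0.123 to 0.146 CPM (read counts scaled to a common library size). T cell markers were high in every library: Cd3e, a chain of the T cell receptor complex, stood between 219 and 345 CPM. The 9 T cell markers summed to 1806 to 2237 CPM W/O IL-10 and 2284 to 2378 CPM W/ IL-10. Of the 9, 8 had a log2 fold change above 0, and none of these passed an adjusted p of 0.05. Cd5 was the exception, lower W/ IL-10 (log2 -0.47 ± 0.10, adjusted p = 0.0467, edgeR). Cd4, which double negative cells lack, stood at 0.351 to 1.55 CPM. Cd8a, which they should also lack, stood at 95.8 to 119 CPM W/O IL-10 and 139 to 169 CPM W/ IL-10 (adjusted p = 0.0369, edgeR), so that Cd8a RNA was present in every library. The 5 B cell markers summed to 62.3 to 153 CPM W/O IL-10 and 59.4 to 106 CPM W/ IL-10, the dendritic cell markers to 44.7 to 54.5 and 58.8 to 65.9 CPM, the macrophage or monocyte markers to 27.6 to 35.3 and 33.3 to 36.6 CPM, and the NK cell markers to 547 to 580 and 389 to 417 CPM, of which Eomes, also a T cell factor, made the larger part. Of the 5 dendritic cell markers tested, 2 had a log2 fold change above 0. Itgax stood at 18.8 to 22.7 CPM W/O IL-10 and 39.9 to 49.4 CPM W/ IL-10 (adjusted p = 0.00383, edgeR). Xcr1 was the other, while Ccl22 (log2 -2.67), Zbtb46 (-0.44) and Cd86 (-0.14) were below 0. Red cell markers summed to 0.444 to 5.31 CPM over all libraries, with the highest sum in W/O IL-10 replicate 1. None of the listed markers was at 0 in every library, and the part of other cells in the values below was not tested.

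W/O IL-10 replicate 1 stood apart from the other libraries in the members, and each result below is therefore given with and without it. Nuclear members made up 0.914% of its counts, against 0.704% to 0.794% in the other 5 libraries, while mitochondrially encoded members made up 1.28%, against 2.12% to 2.64%. In 85 of the 92 nuclear members it was higher than both other W/O IL-10 libraries, and in 59 it was the highest of all 6. In 11 of the 12 mitochondrially encoded members it was the lowest of all 6, the exception being mt-Nd4l. W/ IL-10 replicate 1 was higher than both other W/ IL-10 libraries in 66 nuclear members and in all 12 mitochondrially encoded members. In 57 nuclear members both libraries numbered 1 lay above the other 4.

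**Figure D1:**
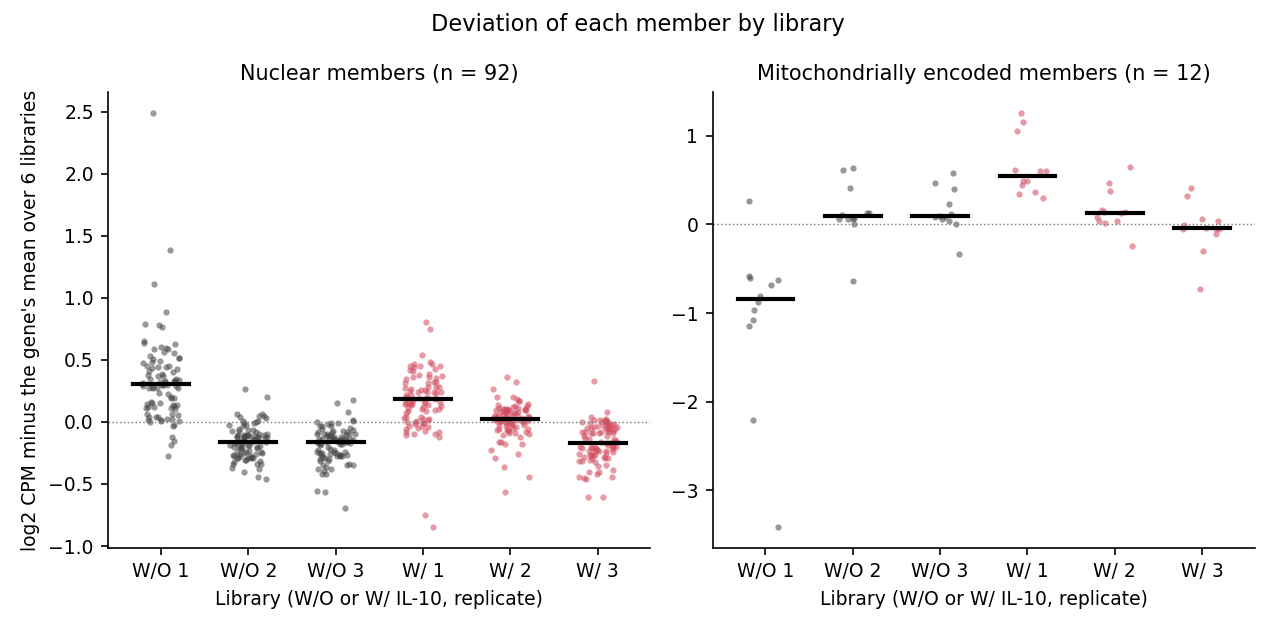
Each point is 1 member in 1 library, as its log2 CPM minus that gene's mean over the 6 libraries (vertical axis, log2 units), with W/O IL-10 libraries in grey and W/ IL-10 libraries in red, and the black bars are medians. The nuclear medians are highest in W/O IL-10 replicate 1 (0.30) and W/ IL-10 replicate 1 (0.19), and the mitochondrial median is lowest in W/O IL-10 replicate 1 (-0.84) and highest in W/ IL-10 replicate 1 (0.55).

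The main comparison asked whether IL-10 changed the RNA of the respiratory chain and the ATP synthase in cDNT. Compared with control cDNT, no member passed an adjusted p of 0.05 W/ IL-10 (0 of 104), where 2.19% of all 14916 tested genes passed. With a fold change of at least 1.5 added, 0 members and 1.45% of tested genes passed. These counts come from edgeR's quasi-likelihood test, and DESeq2 and limma-voom also called 0 members. Before adjustment, 1 member (Atp5l) had a p under 0.05 by edgeR, 3 by DESeq2 and 0 by limma-voom, where 14.7% of tested genes had one by edgeR. The lowest adjusted p of a member was 0.318, for Atp5l. The 95% interval of the fold change lay within 1.5-fold in either direction for 64 of the 104 members, all of them nuclear, so for these a change of 1.5-fold lay outside the interval. For the other 40 members, among them every mitochondrially encoded one, the libraries could not exclude a change of that size.

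The groups did not overlap in 3 members that were higher W/ IL-10 (Atp5l, Ndufa9 and Ndufc2) and in 2 that were lower (Atp5s and Sdha). These are 2.88% and 1.92% of the members, where 11.3% and 11.2% of all tested genes were so separated. The median log2 fold change was 0.01 over the nuclear members, with 51 of 92 above 0, and 0.42 over the mitochondrially encoded members, with 11 of 12 above 0. Over all tested genes the median was 0.01. Neither median kept its place without W/O IL-10 replicate 1: the nuclear median became 0.18, with 82 of 92 above 0, and the mitochondrial median became 0.11, with 10 of 12 above 0. Without W/ IL-10 replicate 1 the nuclear median was -0.07 and the mitochondrial median 0.17, and leaving out W/O IL-10 replicate 2 or 3 also gave a nuclear median of -0.07. Its sign thus turned on which library was left out. With a correction for GC content and length on all 6 libraries the mitochondrial median was 0.13, with 8 of 12 above 0, and the nuclear median 0.04.

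Without W/O IL-10 replicate 1, again 0 of 104 members passed an adjusted p of 0.05, where 3.58% of 14646 tested genes passed. Before adjustment, 19 members (18.3%) had a p under 0.05 and were higher W/ IL-10, where 7.39% of tested genes did, and all 19 were nuclear. They included Atp5j, Atp5f1, Atp5o, Cox5a, Cox5b, Cox6b1, Cox6c, Cox7b, Ndufa11, Ndufa13 and Ndufs6. The lowest adjusted p was 0.058, for Atp5j. This fit kept W/ IL-10 replicate 1, which had a nuclear median deviation of 0.19. W/ IL-10 replicates 2 and 3 had 0.02 and -0.17, and the remaining W/O IL-10 libraries -0.16 each. The filter on low counts also mattered. With all 29393 genes fitted, 7 of the 115 named genes passed an adjusted p of 0.05 (Cox6a2, Cox8b, mt-Co2, mt-Cytb, mt-Nd1, mt-Nd2 and mt-Nd6), which is 6.09%, where 4.22% of all genes passed. With no filter and without W/O IL-10 replicate 1, 11 of the 115 passed (9.57%), all nuclear, where 3.45% of genes passed, and 0 of the earlier 7 were among them.

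**Figure D2:**
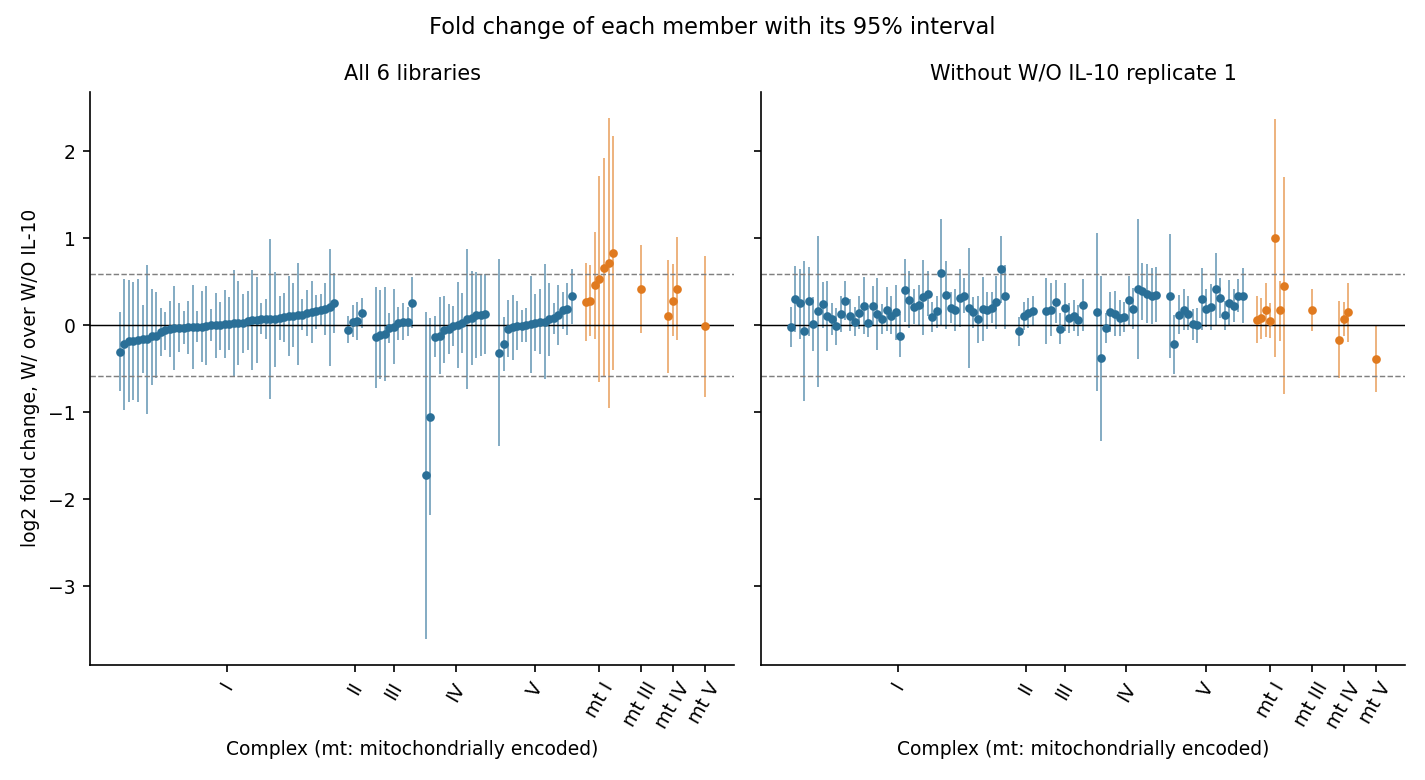
Each point is the log2 fold change of 1 member, W/ over W/O IL-10, with its 95% interval (edgeR), for nuclear (blue) and mitochondrially encoded (orange) members by complex, in all 6 libraries (left) and without W/O IL-10 replicate 1 (right), and the dashed lines mark a 1.5-fold change. The nuclear median moves from 0.01 to 0.18 and the mitochondrial median from 0.42 to 0.11 between the panels.

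Complex I is the entry point for electrons from NADH and the largest complex of the chain. Its 38 nuclear subunits had a median log2 fold change of 0.02, from -0.31 to 0.21, with 22 above 0 and 16 below, and the interval lay within 1.5-fold in 27. Without W/O IL-10 replicate 1 the median was 0.20 and 37 of 38 were above 0. Their summed level was 2188, 1586 and 1590 CPM W/O IL-10 and 1962, 1817 and 1622 CPM W/ IL-10, so the groups overlapped and the highest and lowest sums were both W/O IL-10.

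Ndufa9, a subunit that helps hold the peripheral arm on the membrane arm, stood at 49.4, 44.8 and 47.4 CPM W/O IL-10 and 55.4, 54.8 and 50.1 CPM W/ IL-10. The groups were separate, with the treated libraries on the upper side, and the log2 fold change was 0.18 ± 0.08 (SE, n = 3 libraries per group) with an adjusted p of 0.341 (edgeR) and an interval from -0.00 to 0.36. Ndufc2, an accessory subunit of the membrane arm, was separated in the same direction, from 23.2 to 24.7 CPM W/O IL-10 and 25.6 to 27.5 CPM W/ IL-10, with a log2 fold change of 0.16 ± 0.09. Ndufs6, a zinc-binding accessory subunit, stood at 28.6, 14.6 and 13 CPM W/O IL-10 and 26.7, 22.2 and 16.1 CPM W/ IL-10. The 2 libraries numbered 1 were the highest of their groups, and the log2 fold change was 0.21 ± 0.30 with all libraries and 0.64 without W/O IL-10 replicate 1 (adjusted p = 0.0784, edgeR).

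At the other end of complex I, Ndufa6, an accessory subunit that anchors the acyl carrier protein, stood at 86.9, 52.6 and 51.3 CPM W/O IL-10 and 59.7, 49.6 and 45.2 CPM W/ IL-10. The log2 fold change came to -0.31 ± 0.20, and -0.02 without W/O IL-10 replicate 1. Ndufa1, a small subunit of the membrane arm encoded on the X chromosome, stood at 49.2, 21.5 and 20.5 CPM against 33.3, 25.6 and 19.3 CPM. W/O IL-10 replicate 1 was 2.35 times the mean of the other control libraries, and the log2 fold change went from -0.22 ± 0.33 to 0.30 without it. Ndufa4 is counted with complex I by its symbol, although it also copurifies with complex IV. It stood at 48.2, 24.9 and 25.6 CPM against 34.2, 30.9 and 25.1 CPM (log2 -0.13 ± 0.25), and its relative Ndufa4l2 had at most 0.0972 CPM. The 8 assembly factors Ndufaf1 to Ndufaf8 had a median log2 fold change of 0.00, from -0.16 to 0.25, and 6 of 8 intervals lay within 1.5-fold. Ndufaf2 shared 64.1% of its 50-base stretches with other transcripts, among them the antisense gene B230220B15Rik, so its counts (mean 7.44 CPM) are uncertain.

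Complex II, succinate dehydrogenase, is also an enzyme of the tricarboxylic acid cycle and has no mitochondrially encoded subunit. Its members were the steadiest of the 5 complexes by the median SE (0.08), and all 4 intervals lay within 1.5-fold. Sdha, the flavoprotein that oxidises succinate, stood at 223, 218 and 232 CPM W/O IL-10 and 213, 216 and 218 CPM W/ IL-10. The groups did not overlap when unrounded values were used, with a log2 fold change of -0.06 ± 0.07 and an interval from -0.21 to 0.10. Sdhb, the iron-sulfur subunit, stood at 111, 92.8 and 90.6 CPM against 110, 101 and 94.6 CPM, a log2 fold change of 0.05 ± 0.10. Of the membrane anchors, Sdhc had a log2 fold change of 0.04 ± 0.08 and Sdhd one of 0.14 ± 0.08. Sdhd stood at 117, 112 and 106 CPM W/O IL-10 and 129, 125 and 114 CPM W/ IL-10, and its adjusted p was 0.448 (edgeR).

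Complex III, the cytochrome bc1 complex, passes electrons from the quinone to cytochrome c. Its 9 nuclear subunits had a median log2 fold change of -0.02, from -0.14 to 0.26, and 6 intervals lay within 1.5-fold. Uqcrc1, a core protein, stood at 173, 177 and 170 CPM W/O IL-10 and 160, 182 and 168 CPM W/ IL-10. The other core protein, Uqcrc2, had a log2 fold change of 0.04 ± 0.07, and the Rieske iron-sulfur protein Uqcrfs1 one of 0.04 ± 0.09. W/O IL-10 replicate 1 stood at 0.999 (Uqcrc1), 1.06 (Uqcrc2), 1.16 (Uqcrfs1) and 0.967 (Uqcrb) times the mean of the other 2 control libraries, and at 1.72 (Uqcrh), 1.70 (Uqcr10) and 1.52 (Uqcrq) times. Uqcrh, the hinge protein, stood at 134, 75.5 and 81.1 CPM W/O IL-10 and 119, 76.3 and 68.3 CPM W/ IL-10, and Uqcr10 at 83.3, 49.9 and 47.9 CPM against 69.1, 54.3 and 44.7 CPM. In both, the 2 libraries numbered 1 were the highest. Uqcrb, which binds the quinone site, had the highest fold change among the nuclear subunits of the complex (log2 0.26 ± 0.13, adjusted p = 0.404, edgeR), and 25.5% of its 50-base stretches also lie in other transcripts.

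Complex IV, cytochrome c oxidase, is the step that consumes oxygen, and several of its nuclear subunits exist as a ubiquitous isoform and as one of heart and muscle. Its 13 nuclear subunits had a median log2 fold change of 0.00, from -1.72 to 0.13, and 0.19 without W/O IL-10 replicate 1. Per kilobase of exon, the ubiquitous isoforms were the higher ones of each pair. Cox4i1 stood at 167, 129 and 128 CPM W/O IL-10 and 151, 141 and 119 CPM W/ IL-10 (log2 fold change -0.04 ± 0.13), and its hypoxia and lung isoform Cox4i2 had at most 0.0827 CPM in any library. Per kilobase of exon, Cox8a was the highest nuclear member at 329 CPM per kb, followed by Cox6a1 at 230. Cox6b1 had 120 CPM per kb, and its testis isoform Cox6b2 1.48. Cox5a, with 83.7, 57.0 and 51.6 CPM W/O IL-10 and 86.1, 69.3 and 54.7 CPM W/ IL-10, had a log2 fold change of 0.13 ± 0.20, and Cox6c one of 0.12 ± 0.21. Cox7b had 0.12 ± 0.22, and its testis isoform Cox7b2 had at most 0.0888 CPM. Cox7c, at 160, 94.2 and 101 CPM against 127, 105 and 95 CPM, had -0.12 ± 0.19, and the supercomplex factor Cox7a2l -0.14 ± 0.10.

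The heart and muscle isoforms of complex IV were higher in W/O IL-10 replicate 1 than in the other libraries. Cox6a2 stood at 8.17, 0.993 and 0.818 CPM W/O IL-10 and 0.729, 1.11 and 1.18 CPM W/ IL-10, so that one library was 9.02 times the mean of the other 2 controls and the groups otherwise overlapped. Its log2 fold change of -1.72 ± 0.83 (adjusted p = 0.386, edgeR) became 0.15 without that library. Cox7a1 stood at 3.06, 1.37 and 0.818 CPM against 0.632, 0.799 and 1.10 CPM, with a log2 fold change of -1.05 ± 0.50 (adjusted p = 0.381) that became -0.38. Cox8b, which did not pass the filter, had 52, 1 and 0 counts W/O IL-10 and 1, 0 and 0 W/ IL-10. In the ubiquitous counterparts that library was 1.23 (Cox6a1), 1.44 (Cox7a2) and 1.39 (Cox8a) times the mean of the other control libraries. Cox6a1 stood at 186, 155 and 146 CPM against 162, 170 and 151 CPM (log2 -0.01 ± 0.10), Cox7a2 at 98.3, 69.2 and 67.6 CPM against 90.9, 72.7 and 63.5 CPM (log2 -0.05 ± 0.17), and Cox8a at 249, 176 and 182 CPM against 238, 204 and 175 CPM (log2 0.03 ± 0.15).

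Other transcripts of heart muscle moved with these 3 isoforms. In a list of 18 heart muscle genes drawn up after the values were seen, 17 were highest in W/O IL-10 replicate 1, and the list summed to 252 CPM there against 11.8 to 22.6 CPM in the other 5 libraries, where Actn2 made up the larger part. Actn2 was the exception, and was itself lower W/ IL-10 (log2 -1.02 ± 0.15, adjusted p = 0.0146, edgeR). Mb, myoglobin, stood at 55.5 CPM in that library and at most 0.486 CPM elsewhere, and Myh6, the atrial myosin heavy chain, at 34.6 CPM against at most 0.729 CPM. The part of these transcripts in the levels of the other nuclear members was not tested.

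**Figure D3:**
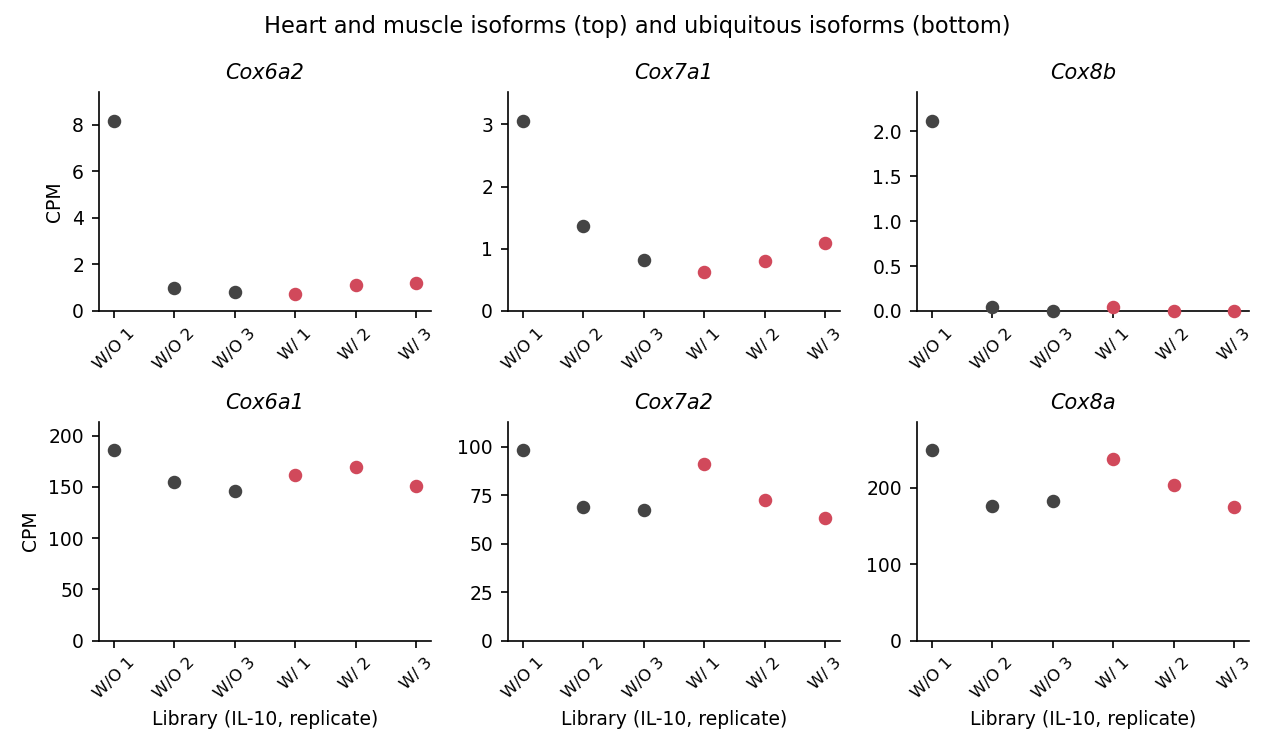
Each panel plots the CPM of 1 gene (vertical axis, from 0) in the 6 libraries, W/O IL-10 in grey and W/ IL-10 in red, for the heart and muscle isoforms Cox6a2, Cox7a1 and Cox8b (top) and their ubiquitous counterparts Cox6a1, Cox7a2 and Cox8a (bottom). W/O IL-10 replicate 1 is alone in the top panels, for example 8.17 CPM against 0.729 to 1.18 CPM for Cox6a2.

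Complex V is the ATP synthase, a rotor in the membrane joined to a catalytic head. Its 16 nuclear subunits summed to 3398, 2869 and 2867 CPM W/O IL-10 and 3244, 3177 and 2903 CPM W/ IL-10. The median log2 fold change was 0.03, from -0.32 to 0.33, and 13 intervals lay within 1.5-fold. Without W/O IL-10 replicate 1 the median was 0.21, with 15 of 16 above 0. Atp5b, the catalytic beta subunit, stood at 874, 823 and 827 CPM W/O IL-10 and 813, 883 and 815 CPM W/ IL-10 (log2 -0.01 ± 0.08, interval from -0.19 to 0.18). Its partner Atp5a1, the alpha subunit, had a log2 fold change of 0.00 ± 0.08.

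Atp5l, subunit g of the membrane part, stood at 20.2, 18.9 and 19.9 CPM W/O IL-10 and 30.7, 22 and 21.7 CPM W/ IL-10. The groups did not overlap, the treated replicate 1 lay well above the rest, and the log2 fold change was 0.33 ± 0.14 (adjusted p = 0.318, edgeR). With the correction for GC content and length it was 0.12 (adjusted p = 0.784). Of its 50-base stretches, 9.99% also lie in other transcripts, among them its pseudogenes. Atp5j, coupling factor 6, stood at 103, 76.0 and 76.2 CPM W/O IL-10 and 107, 97.3 and 86.9 CPM W/ IL-10. Leaving out W/O IL-10 replicate 1 raised the log2 fold change of Atp5j from 0.19 ± 0.13 to 0.34. The groups then no longer overlapped, which was also so for other members, among them Atp5j2, Ndufa11, Ndufa13 and Ndufs6. How many of all tested genes separated in this way without that library was not counted. Atp5g1, Atp5g2 and Atp5g3 encode one and the same mature c subunit of the rotor, and had log2 fold changes of -0.04 ± 0.15, -0.02 ± 0.16 and 0.04 ± 0.16. Of the 3, Atp5g3 and Atp5g2 averaged 167 and 128 CPM and Atp5g1 66.9 CPM. Per kilobase of exon these were 76.7, 76.3 and 13.6 CPM per kb, where Atp5g1 had 4912 annotated exon bases against 2181 and 1675. Atp5k, subunit e, had the lowest log2 fold change of the complex, -0.32 ± 0.47, with 27.0 and 21 CPM in the libraries numbered 1 and 8.15 to 10 CPM in the other 4. Atp5s fell on the lower side in all W/ IL-10 libraries, from 7.45 to 8.65 CPM W/O IL-10 and 6.53 to 7.37 CPM W/ IL-10 (log2 -0.22 ± 0.14, adjusted p = 0.502, edgeR).

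The mitochondrial genome is transcribed as long RNAs from both strands that are cut into the single messengers. All members except mt-Nd6 are encoded on the plus strand of chrM. The levels per length were uneven: mt-Co1, the catalytic subunit of complex IV, stood at 7585 CPM per kb, mt-Cytb at 2503, mt-Nd1 at 1684, mt-Nd5 at 1335, mt-Nd2 at 1047, mt-Nd4 at 999 and mt-Nd6 at 600. By contrast, mt-Co2 stood at 30.4 CPM per kb, mt-Co3 at 15.2, mt-Atp6 at 11.6, mt-Nd4l at 2.12 and mt-Nd3 at 1.85. These last 5 are the members for which over 90% of the 50-base stretches also lie in other annotated transcripts (98.0% to 100%), as the identical stretches of mt-Co2 and Gm28661 printed above show, while the share was 62.2% for mt-Nd4, 51.1% for mt-Co1 and 0.00% to 8.19% for the rest. The copy Gm10925 of mt-Atp6 stood at 5.92 to 43.3 CPM and the copy Gm28661 of mt-Co2 at 10 to 20.4 CPM. How reads that fit several places were counted is not given in the sources used here, and the part of such reads in the low levels was not tested. mt-Atp8, which did not pass the filter, had 1 count in all, and 0% of its 50-base stretches lie in other annotated transcripts. It lies at chrM:7766-7969 and overlaps mt-Atp6, which starts at 7927 on the same strand. Shared stretches shorter than 50 bases were not looked for. mt-Atp8 and the 5 members of low level lie side by side on chrM, from 7013 to 10173. The part of overlap or place in these levels was not tested.

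Of the 7 mitochondrially encoded members outside this set of 5, every one had a positive log2 fold change, from 0.27 to 0.72, and none passed the test. With a correction for GC content and length the sign turned in mt-Nd4 (-0.18) and mt-Nd5 (-0.09), and the other 5 ranged from 0.06 (mt-Co1) to 0.42 (mt-Nd6). mt-Co1 stood at 7468, 11966 and 12294 CPM W/O IL-10 and 14580, 12225 and 11779 CPM W/ IL-10. One control library lay low and one treated library high, the other 4 lay between 11779 and 12294 CPM, and the log2 fold change was 0.28 ± 0.18 (adjusted p = 0.531, edgeR). mt-Cytb, cytochrome b of complex III, had the same lowest and highest library, at 1583, 2884 and 2894 CPM W/O IL-10 and 3882, 3054 and 2886 CPM W/ IL-10. The log2 fold change came to 0.42 ± 0.22 with the lowest adjusted p of the mitochondrial members (0.432, edgeR), and 0.17 without W/O IL-10 replicate 1. mt-Nd1 stood at 786, 1655 and 1632 CPM against 2345, 1721 and 1530 CPM, with a log2 fold change of 0.46 ± 0.27 that became 0.17. mt-Nd5, at 1571, 2607 and 2454 CPM against 3235, 2448 and 2298 CPM, and mt-Nd4, at 900, 1405 and 1431 CPM against 1742, 1475 and 1309 CPM, had log2 fold changes of 0.27 ± 0.20 and 0.28 ± 0.18. In both, the treated replicate 1 was the highest library and the control replicate 1 the lowest.

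The shortfall of W/O IL-10 replicate 1 was not the same for each mitochondrial gene. The mean of the other 2 control libraries was 1.58 times its level for mt-Nd4, 1.61 times for mt-Nd5, 1.62 times for mt-Co1, 1.83 times for mt-Cytb and 2.09 times for mt-Nd1. For mt-Nd2 it was 6.13 times, with 201 CPM in that library and 1157 to 1413 CPM in the other 5. For mt-Nd6 it was 16.2 times, with 21.2 CPM against 301 to 506 CPM. mt-Nd6 is the member on the minus strand, and its log2 fold change of 0.72 ± 0.73 became 0.17 without that library. The ribosomal RNAs of the mitochondrion were low in the same library, with mt-Rnr2 at 318 CPM against 552 to 926 CPM and mt-Rnr1 at 266 CPM against 314 to 576 CPM.

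Without W/O IL-10 replicate 1, the same 7 members had log2 fold changes from 0.05 to 0.17, and all 7 intervals lay within 1.5-fold. The 5 members with over 90% shared stretches ranged from -0.39 (mt-Atp6) to 1.00 (mt-Nd4l), with 1 interval within 1.5-fold. mt-Co2 stood at 10.8, 21 and 21.6 CPM W/O IL-10 and 30.3, 22.1 and 19.2 CPM W/ IL-10, and mt-Co3, another core subunit of complex IV, at 7.11, 11.5 and 15.9 CPM against 16.2, 9.68 and 11.2 CPM. Their log2 fold changes were 0.42 ± 0.26 and 0.10 ± 0.29 with all libraries. mt-Atp6, subunit a of the ATP synthase, stood at 3.47, 11.6 and 8.74 CPM W/O IL-10 and 9.18, 7.55 and 6.88 CPM W/ IL-10, and was the only member with a log2 fold change below 0 among the mitochondrially encoded ones in the fit with all libraries (-0.01 ± 0.36).

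**Figure D4:**
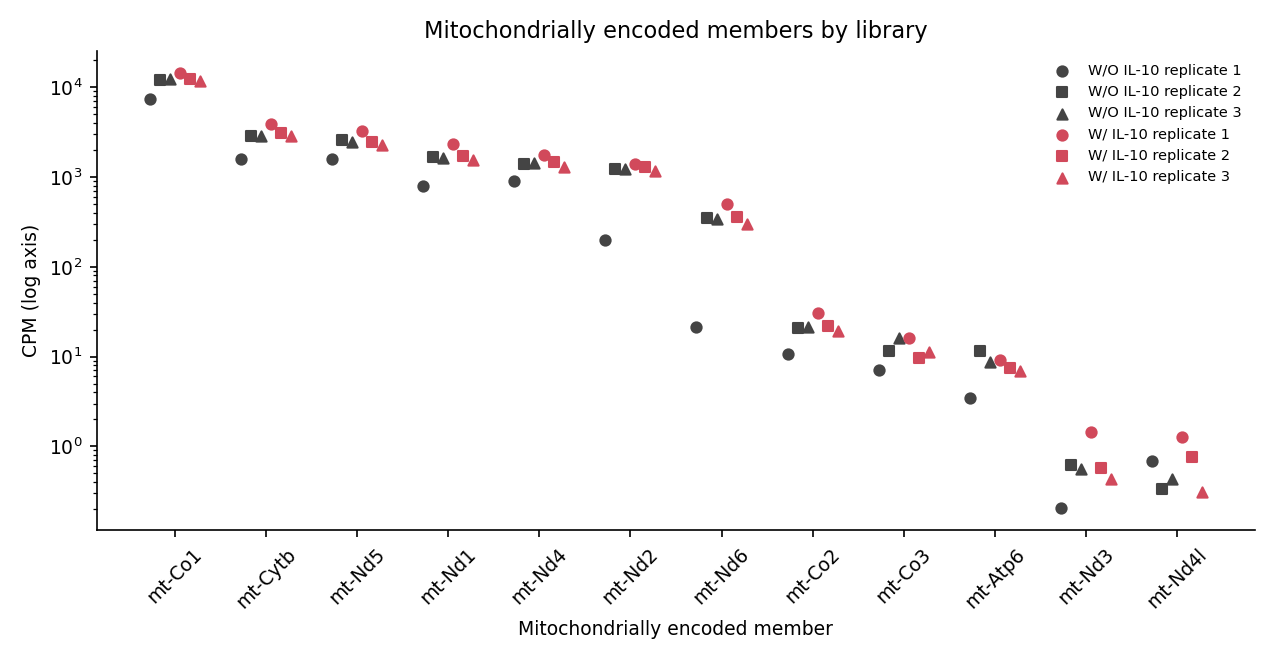
The points give the CPM (vertical axis, log scale) of the 12 mitochondrially encoded members in the 6 libraries, W/O IL-10 in grey and W/ IL-10 in red, with a symbol for each replicate number. W/O IL-10 replicate 1 (grey circles) is the lowest library for each gene but mt-Nd4l, and stands furthest below the others for mt-Nd2 (201 CPM) and mt-Nd6 (21.2 CPM).

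The nuclear members differed in exon length, counted over the merged exons of all annotated transcripts of a gene. This is not the length of the transcripts that the cells made. The gap between W/O IL-10 replicate 1 and its group went with exon length. As a difference in log2 CPM from the mean of the other 2 controls, the gap had a median of 0.69 in the 20 nuclear members with up to 1000 exon bases, 0.61 in the 35 of over 1000 and up to 2000, 0.21 in the 23 of over 2000 and up to 4000 and 0.13 in the 11 over 4000, leaving out members not annotated as protein-coding. All protein-coding genes tested showed the same order at lower values, with medians of 0.39, 0.18, 0.05 and -0.05. Over the 92 nuclear members the gap and log2 exon length had a Pearson r of -0.52 and a Spearman rho of -0.56, and over 12294 protein-coding genes -0.23 and -0.31. These are correlations across genes that share the same libraries, and are given as a description. In W/ IL-10, the gap between replicate 1 and the other 2 had medians of 0.34, 0.29, 0.12 and 0.13 in the same classes of nuclear members, against 0.19, 0.03, -0.03 and 0.02 over all protein-coding genes. The part of length in these gaps was not tested.

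**Figure D5:**
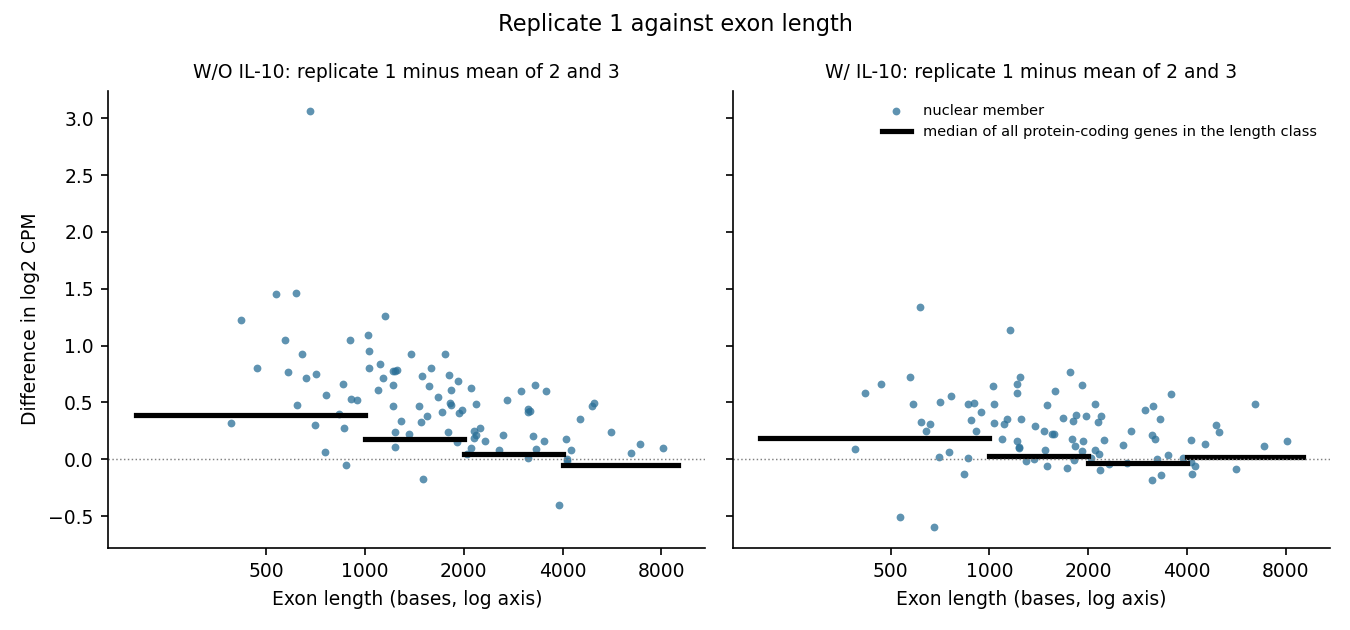
Each point is 1 of the 92 nuclear members, with its exon length on the horizontal axis (bases, log scale) and the difference in log2 CPM between replicate 1 and the mean of replicates 2 and 3 on the vertical axis, W/O IL-10 on the left and W/ IL-10 on the right. The black bars are medians of all protein-coding genes tested in each length class, from 0.39 down to -0.05 on the left, and the highest point is Cox6a2.

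The groups of members with and without promoter motifs differed little in their fold change. The 19 matched members with the NRF1 letters had a median log2 fold change of 0.03 and the 55 without them 0.00, and without W/O IL-10 replicate 1 the medians were 0.19 and 0.18. For the 11 with the YY1 letters the medians were 0.07 and 0.22, and for the 63 without them 0.01 and 0.17.

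The genes around the respiratory chain were read from lists. Over all 14916 tested genes, 2.19% passed an adjusted p of 0.05. A count of 0 or 1 in lists this short is near that share. Of the electron carriers and carriers of ATP and phosphate, 0 of 15 tested passed the test, and the median log2 fold change was 0.02. Cycs, the somatic cytochrome c that links complexes III and IV, stood at 80.9, 75.9 and 75.4 CPM W/O IL-10 and 102, 97.4 and 83.4 CPM W/ IL-10. The groups did not overlap, with a log2 fold change of 0.29 ± 0.09 and an adjusted p of 0.168 (edgeR), and 0.31 with an adjusted p of 0.09 without W/O IL-10 replicate 1. Slc25a5, the main ADP/ATP carrier of dividing cells, had a log2 fold change of 0.15 ± 0.10, and Slc25a4, the heart and muscle carrier, one of 0.11 ± 0.08. Of the other assembly factors, 0 of 36 passed and the median was -0.02.

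Beside the 2.19% of all tested genes that passed, the next count is near that share. Among the 26 tested genes that copy, transcribe and process mitochondrial DNA and RNA, 1 rose and none fell. This was Hsd17b10, a subunit of mitochondrial RNase P that also oxidises steroids and fatty acids, at 146, 118 and 123 CPM W/O IL-10 and 186, 186 and 177 CPM W/ IL-10 (log2 0.50 ± 0.09, adjusted p = 0.0322, edgeR), and it also passed without W/O IL-10 replicate 1 (adjusted p = 0.00131). Its RNase P partner Trmt10c had a log2 fold change of 0.21 ± 0.18 that became 0.01 without that library. Polrmt, the mitochondrial RNA polymerase, had -0.19 ± 0.09 (adjusted p = 0.356), and Tfam, which packs and starts transcription of the mitochondrial DNA, 0.10 ± 0.07 (adjusted p = 0.574).

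Of 11 tested regulators of mitochondrial biogenesis, 0 passed, where 2.19% of all tested genes passed. Nrf1 had a log2 fold change of 0.00 ± 0.09, Gabpa 0.12 ± 0.11, Esrra 0.00 ± 0.10 and the coactivator Ppargc1b 0.20 ± 0.20, while Ppargc1a, its better known relative, had at most 0.409 CPM in any library and was not tested. Of the 14 enzymes of the tricarboxylic acid cycle, 0 passed, with a median of 0.02. Of the 77 mitochondrial ribosomal proteins, 0 passed, with a median of -0.00 that became 0.05 without W/O IL-10 replicate 1. That library was the highest of the 6 in 36 of these 77, against 59 of the 92 nuclear members. The 3 listed RNAs of mitochondrial translation, mt-Rnr1, mt-Rnr2 and mt-Tp, had a median of 0.27 that became -0.07.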

How the data were processed

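Total RNA of 6 cDNT libraries (3 W/O IL-10, 3 W/ IL-10) was sequenced by the authors, who deposited raw counts per Ensembl gene. The submitters' processing notes name HISAT2, HTSeq and GRCm38, whereas the paper's methods name TopHat, Cufflinks and UCSC annotation. The labels and the methods also name different library kits, and the strand setting and the handling of reads with several matches are not given in the sources used here. Symbols and exon lengths came from GENCODE M21 (29332 of 29393 identifiers matched). Exon length, also used for CPM per kb, counts the merged exons of all annotated transcripts of a gene. Members and gene lists were chosen with earlier results of these data known.

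The 14916 genes that reached 10 counts in 3 libraries or more were tested with edgeR 4.0.16 (quasi-likelihood F-test, TMM scaling, groups as the only term) in R 4.3.3, two-sided, with Benjamini-Hochberg adjustment over all tested genes. CPM used TMM-scaled library sizes, and log2 CPM a prior count of 2. SE is the log2 fold change over the root of F, and intervals are 95%. DESeq2 1.42.0, limma 3.58.1 (voom), other scalings, other filters, a correction for GC and length, the replicate block and each library left out were alternatives. Named were all mitochondrial and complex II members, the isoform pairs, and in each complex the 2 highest and 2 lowest fold changes at 20 CPM or more and the highest level. Other members were named after their values were seen. One member that this rule takes in is not reported here. In simulated data, the test recovered 33.5% of genes changed by 1.5-fold and 98.0% of those changed by 2-fold. The simulation gave every gene the same dispersion (spread between libraries), which was not estimated from these data.

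Libraries held 21619420 to 23967088 counts, and the floor of 3 counts covers counting error only. The design text speaks of duplicates, while 3 libraries per group are labelled and used.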

Additional observations from a re-analysis of the deposited data

How the results depend on the processing

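No member passed an adjusted p of 0.05 in any of the fits with the low-count filter and all 6 libraries, or with a single library left out and nothing else changed. Without the filter 6 of the 104 members passed, where 1239 of 29393 genes did (4.22%). With a fold change of at least 1.5 added, 2 members and 639 genes passed. A pair of settings was added after seeing the data. With no filter and without W/O IL-10 replicate 1, 11 of the 104 members passed, where 994 of 28813 genes did (3.45%). With the fold change, 2 members and 440 genes passed there. With a GC and length correction and without that library, 3 of the 104 members passed (Atp5j, Ndufa11 and mt-Atp6), where 658 of 14628 genes did. In this last setting the mitochondrial median became -0.06 from 0.42. The correction alone gave a mitochondrial median of 0.13 (0.10 with the block), and leaving out that library alone 0.11. Over all genes, 327 passed, against 696 by DESeq2, 1239 with no filter, 554 with the GC and length correction, 922 with that correction and the replicate block, 994 with no filter and without W/O IL-10 replicate 1, and 658 with the correction and without that library. With the fold change, 217 passed, against 359, 639, 354 (correction and block) and 440 (no filter, without that library). Leaving out 1 library gave 35 to 525 genes, and 35 to 254 with the fold change, with the fewest without W/ IL-10 replicate 3 and the most without W/O IL-10 replicate 1. It gave nuclear medians from -0.07 to 0.18 and mitochondrial medians from 0.11 to 0.55. The cause of these shifts was not tested. A fit with a term for the replicate block called 283 genes, 196 of them with the fold change, and 0 members. Same-numbered libraries had correlations of deviations of 0.0524, -0.0573 and 0.114 over all genes (mean 0.221 over the nuclear members), so the numbers were not taken to pair the samples, and in 2 of the 3 numbers both libraries correlated best with their own number. Of 826 fold changes of the 46 named members under 18 alternatives, 132 changed sign without a call, 100 moved by at least 1 SE and 13 were called. In data simulated at these library sizes, 1.5-fold changes were recovered in 33.5% of the changed genes. The simulation used a fixed dispersion and changed only genes above a minimum mean count. It therefore does not give the recovery at the spread of these libraries.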
